A study of Mus musculus with 3 samples.

Results

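Matricellular proteins are secreted proteins that lie in the extracellular matrix and act on cells rather than building fibrils. Their genes were followed here in mouse myoblasts kept on 3 culture substrates. The 10 genes were taken by their symbols, Spp1, Sparc, Tnc, Postn, Thbs1, Thbs2, Thbs3, Thbs4, Nov and Wisp1, out of 23238 gene symbols counted. RNA-seq was made from c2c12 cells, an immortalized mouse myoblast cell line, after 2 days in myogenic induction medium, which is DMEM with horse serum at a low share. The substrates were a tissue culture plate (TCP), a hydrogel of 15% methacrylated gelatin (GelMA), and the same 15% gelatin hydrogel mixed with 1% poly(sodium 4-styrenesulfonate) (GelMA-PSS), a sulfonated polymer that the study used as a mimic of heparin. No allele, gene deletion or drug distinguished the substrates, and the cells of all 3 were in the same induction medium. Each substrate had 1 library, and how many cultures went into a library is not stated. With a single library per substrate, the differences given below rest on no replicates and carry no p-value. Intervals are at 95% and cover counting error only. It is not known whether the mates of a read pair were counted separately, and the intervals would then be too narrow.

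Matricellular proteins bind collagens, growth factors and cell surface receptors such as integrins, and through these contacts they loosen or modify the adhesion of cells to matrix. Their genes are used heavily in developing and injured tissue, skeletal muscle included. Osteopontin (Spp1) carries an integrin-binding site and also binds CD44, and SPARC (Sparc) binds collagen. Tenascin C (Tnc) and periostin (Postn) are proteins of wounds and remodelling matrix that bind each other. The thrombospondins form trimers (Thbs1, Thbs2) or pentamers (Thbs3, Thbs4), and Thbs1 and Thbs2 bind CD36. Nov and Wisp1 belong to the CCN family, in which newer annotation names them Ccn3 and Ccn4.

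The TCP library held 119799095 counts, the GelMA library 87071144 and the GelMA-PSS library 192171443. Counts were scaled to CPM (counts per 1000000 counts of a library) with TMM factors, and a count of 3, taken as the limit of detection, was a CPM of 0.0246, 0.0330 and 0.0166 in that order. Skeletal muscle markers were present in all 3 libraries, with 8 of 8 above a CPM of 1 and a summed level of 22452 CPM on TCP, 16821 CPM on GelMA and 13492 CPM on GelMA-PSS. Fibroblasts and tenocytes also make matricellular proteins. Of 6 fibroblast markers 4 were above a CPM of 1, with summed levels from 323 to 367 CPM, but Thy1 and Tcf21 were at or under the limit of detection in every library. Of the 3 tenocyte markers Scx lay between 112 and 174 CPM, Tnmd was at or under the limit and Mkx was at most 0.144 CPM. The 4 macrophage markers in the files summed to at most 2.78 CPM and the 4 endothelial markers to at most 0.905 CPM. Myh3 made up much of the skeletal muscle sum. Without it, a choice made after seeing the data, the other 7 muscle markers summed to 12271 CPM, 10465 CPM and 10456 CPM. On each hydrogel 6 of the 8 muscle markers were lower than on TCP and 2, Myod1 and Myf5, were higher. The part of these markers in the differences below was not tested. In these bulk libraries, fewer cells of a type and less RNA per cell cannot be told apart.

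The matricellular genes spanned from among the most abundant messages of these cells to nearly none. Together they took 0.575% of the counts on TCP (Wilson interval 0.573 to 0.576), 0.838% on GelMA (0.836 to 0.840) and 0.841% on GelMA-PSS (0.839 to 0.842). Spp1 alone made up 41.4% of these counts on TCP, 61.9% on GelMA and 63.7% on GelMA-PSS. Per kb of transcript, which is the scale on which genes can be set against each other, the order Spp1, Sparc, Thbs1, Tnc held in all 3 libraries. Below them the order differed. On TCP, Wisp1 (15.1 CPM per kb) stood above Thbs2 (10.3), Nov (7.32) and Postn (6.22). On GelMA, Thbs2 (17.7 CPM per kb) stood above Wisp1 (16.5), Postn (6.73) and Nov (4.64). On GelMA-PSS the order was Thbs2 (17.1 CPM per kb), Postn (12.4), Wisp1 (10.6) and Nov (9.10). Thbs3 came next in each library, at 2.39 to 3.19 CPM per kb, and Thbs4 was last. Without a second library, no neighbours in these orders can be said to differ beyond a replicate spread.

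**Figure D1:**
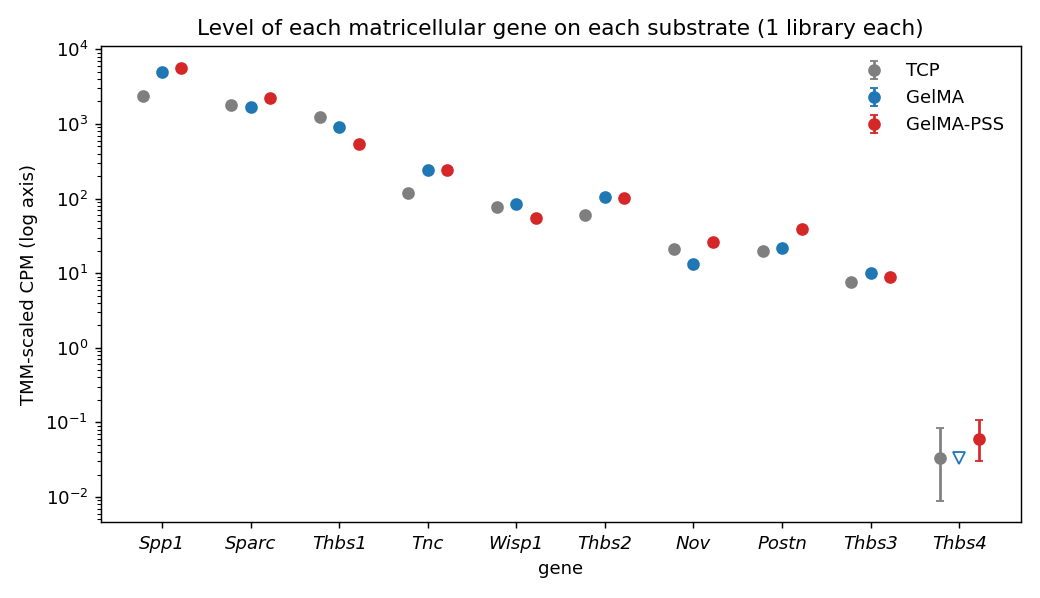
Level of each of the 10 matricellular genes (horizontal axis) in TMM-scaled CPM (log axis) on TCP, GelMA and GelMA-PSS, 1 library each. Bars are exact Poisson intervals at 95% and are hidden by the points for all genes but Thbs4, and the open triangle marks the limit of detection for Thbs4 on GelMA, where it had 0 counts. Spp1 and Tnc sit lowest on TCP, and Thbs1 descends from TCP through GelMA to GelMA-PSS.

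Of the 10 genes, 9 reached a CPM of 1 in at least 1 library and were kept for ratios, as were 13169 genes in all. Ratios between substrates were taken on log2(CPM + 1), and a gene was counted as past the threshold at 2-fold on that scale. For GelMA against TCP, Tnc and Spp1 were higher past 2-fold, 2 of the 9 genes, where 0.706% of all genes tested were higher, and 0 were lower, where 0.296% were. For GelMA-PSS against GelMA, 0 of the 9 were higher and 0 lower past 2-fold, where the shares over all genes were 1.77% and 2.33%. Scaling by total counts alone turned those shares into 0.912% and 3.84%. For GelMA-PSS against TCP, the same pair, Tnc and Spp1, was higher, where 3.72% of all genes were, and Thbs1 was lower, where 3.13% were. With total counts alone these shares were 2.57% and 4.38%, and Tnc was no longer past 2-fold, with a log2 ratio of 0.94. A correction for transcript length and GC content, described below, also took Tnc for GelMA against TCP (0.92) and Spp1 (0.91) and Thbs1 (-0.92) for GelMA-PSS against TCP to short of 2-fold. The median log2 ratio of the 9 genes was 0.13 for GelMA against TCP, 0.00 for GelMA-PSS against GelMA and 0.32 for GelMA-PSS against TCP, beside medians of -0.01, 0.03 and 0.04 over all genes. For GelMA-PSS against GelMA it was 0.26 with the correction and -0.14 with total counts alone, beside -0.00 and -0.10 over all genes. The 3 comparisons use each library in 2 of them, so they are not independent of each other.

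**Figure D2:**
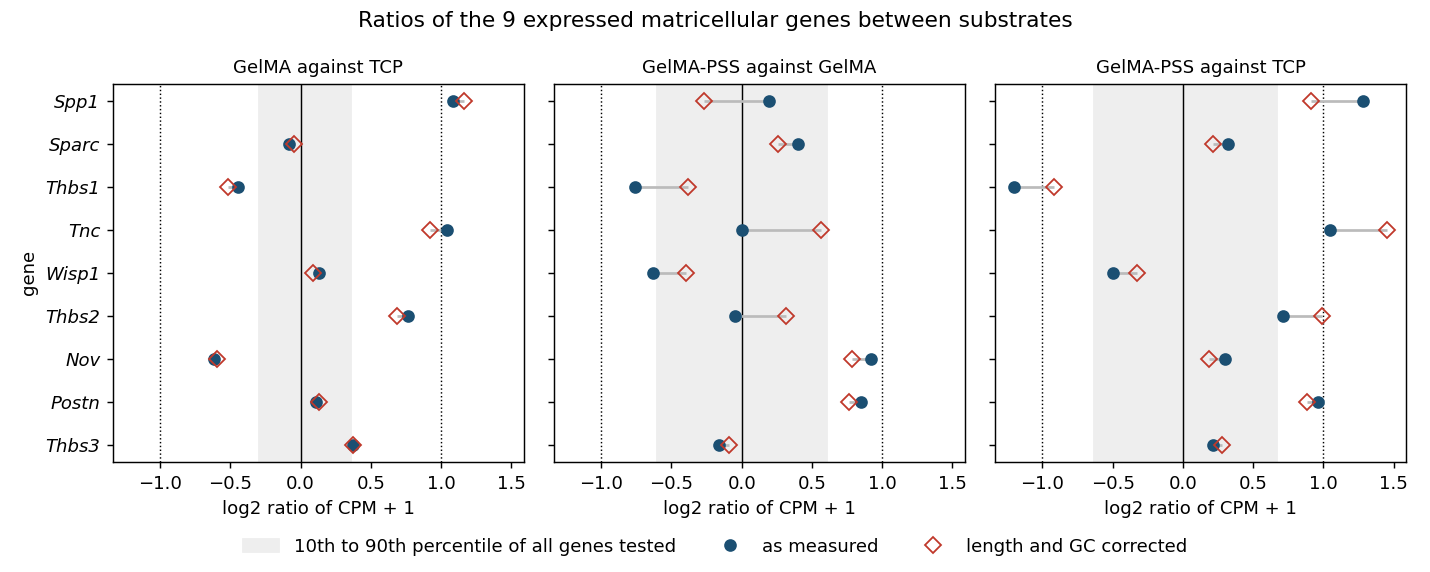
Log2 ratio of CPM + 1 (horizontal axis) of the 9 expressed matricellular genes in the 3 comparisons, as measured (filled circles) and with fits on transcript length and GC content subtracted (open diamonds). The grey band holds the 10th to 90th percentile of all genes tested and dotted lines mark 2-fold. Spp1 and Tnc lie past 2-fold as measured in both comparisons with TCP, and the circles and diamonds of Spp1 and Tnc lie furthest apart in both comparisons of GelMA-PSS.

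The sequences before the starts of Spp1, Tnc and Thbs2, the 3 members with the highest ratios of GelMA against TCP, and of Postn, which was higher on GelMA-PSS, are shown because the levels of these genes differed between substrates in like or contrasting ways. Each is the stretch of 250 bases upstream of a RefSeq start (build GRCm38.p6), read 5′ to 3′ on the strand of the gene, with the capitals marking the letters of the motifs searched. They stand at chr5:104434861-104435110 on the plus strand for Spp1, chr4:64047016-64047265 on the minus strand for Tnc, chr17:14694263-14694512 on the minus strand for Thbs2 and chr3:54360857-54361106 on the plus strand for Postn.
Spp1: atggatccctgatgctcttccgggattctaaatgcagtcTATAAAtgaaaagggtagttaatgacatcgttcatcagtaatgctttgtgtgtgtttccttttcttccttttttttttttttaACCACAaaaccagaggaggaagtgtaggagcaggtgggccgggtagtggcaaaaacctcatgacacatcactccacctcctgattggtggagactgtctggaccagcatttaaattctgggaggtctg
Tnc: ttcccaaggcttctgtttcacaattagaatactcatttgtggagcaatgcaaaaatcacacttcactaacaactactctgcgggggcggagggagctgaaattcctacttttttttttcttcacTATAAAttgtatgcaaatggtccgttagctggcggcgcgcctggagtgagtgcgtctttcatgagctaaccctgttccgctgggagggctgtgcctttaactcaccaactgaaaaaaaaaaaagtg
Thbs2: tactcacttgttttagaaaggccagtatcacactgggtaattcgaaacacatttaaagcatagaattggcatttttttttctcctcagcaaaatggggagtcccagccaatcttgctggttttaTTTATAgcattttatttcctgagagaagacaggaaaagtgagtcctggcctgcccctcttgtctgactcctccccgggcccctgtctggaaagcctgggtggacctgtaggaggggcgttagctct
Postn: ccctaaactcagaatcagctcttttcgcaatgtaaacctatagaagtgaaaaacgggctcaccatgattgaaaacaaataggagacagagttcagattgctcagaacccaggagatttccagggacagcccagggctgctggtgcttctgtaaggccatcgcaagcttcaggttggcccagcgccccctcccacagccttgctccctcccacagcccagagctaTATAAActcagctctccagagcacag

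All 4 windows hold the letters TATAAA, on either strand, which 12.4% of 32851 promoter windows of the same length hold. In Postn they begin 26 bases before the start, in Tnc 126 bases, in Spp1 211 bases, and in Thbs2 they lie on the reverse strand 126 bases before the start. Spp1, Tnc and Postn each have another RefSeq start, farther from the annotated gene start. Its window holds none of the motifs in Spp1 and Postn, and in Tnc it holds TATAAA 205 bases before that start. The Spp1 transcript of 1507 bases described below begins at this other start, so the printed Spp1 window is not directly upstream of it. Spp1 also holds ACCACA, the core letters of RUNX sites, 128 bases before its start, as do 14.0% of all windows. Windows were found for 7 of the 10 genes, and those of Sparc, Thbs3 and Thbs4 did not hold TATAAA. The AP-1 letters TGANTCA (6.75% of all windows) and the CArG box (1.47%) were in none of the 7, and the MCAT letters GGAATG (12.6%) were in that of Thbs4 alone, at 2 places. The GC content of the printed windows was 43.6% for Spp1, 44.8% for Tnc, 46.8% for Thbs2 and 52.0% for Postn, beside a mean of 53.2% over all windows. A match of letters describes the sequence and is not a site of binding.

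Spp1, which encodes osteopontin, was the most abundant of the genes and had the widest range of measured levels over the substrates, although Tnc had the largest corrected ratio, as given below. It had 285044 counts on TCP, 451620 on GelMA and 1029678 on GelMA-PSS, which were levels of 2341 CPM (2332 to 2350), 4969.7 CPM (4955 to 4984) and 5684 CPM (5673 to 5695). By level it stood 30th among all genes on TCP, 9th on GelMA and 7th on GelMA-PSS. Both hydrogels were thus high and the plate low. The fold difference was 2.12 (2.11 to 2.13) for GelMA against TCP and 2.43 (2.42 to 2.44) for GelMA-PSS against TCP, but 1.14 (1.14 to 1.15) between the hydrogels. Of all genes tested, 99.5% had a lower ratio of GelMA against TCP. The gene lies at chr5:104435118-104441050 on the plus strand of GRCm38, and its transcript of 1507 bases in 6 exons is short, since 17.4% of the genes tested are shorter.

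Sparc, the collagen-binding glycoprotein of matrix assembly, was the next in level and the steadiest of the abundant members. Its levels were 1781 CPM on TCP, 1683 CPM on GelMA and 2228 CPM on GelMA-PSS. GelMA differed from TCP by 0.945-fold (0.939 to 0.951), and GelMA-PSS was 1.32-fold (1.32 to 1.33) above GelMA and 1.25-fold (1.24 to 1.26) above TCP. The log2 ratio of GelMA-PSS against GelMA was 0.40, under the 90th percentile of all genes, which was 0.61. The gene spans chr11:55394500-55423183 on the minus strand, with a transcript of 2300 bases.

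Tnc, the gene of the tenascin of embryonic and injured matrix, was low on the plate and high on both hydrogels. Its levels were 117 CPM on TCP, 242 CPM on GelMA and 243 CPM on GelMA-PSS, from 14248, 22015 and 43932 counts. The ratio of GelMA to TCP was 2.07-fold (2.03 to 2.12), that of GelMA-PSS to TCP was 2.07-fold (2.03 to 2.11), and that between the hydrogels was 1.00-fold (0.985 to 1.02). Its ratio of GelMA against TCP was above that of 99.4% of all genes. Tnc lies at chr4:63959785-64047015 on the minus strand and has the longest transcript of the 10, with 7100 bases in 26 exons, so that 93.0% of the genes tested are shorter.

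Postn, whose protein cross-bridges collagen and tenascin, was alike on TCP and GelMA and high on GelMA-PSS. Its levels were 19.8 CPM, 21.5 CPM and 39.6 CPM on TCP, GelMA and GelMA-PSS. GelMA-PSS was 1.84-fold (1.75 to 1.94) above GelMA and 2.00-fold (1.91 to 2.09) above TCP. On the log2(CPM + 1) scale the latter was 0.96, just inside the 2-fold limit, with 95.9% of all genes below it. Postn lies at chr3:54361109-54391037 on the plus strand, with a transcript of 3189 bases in 22 exons.

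Thbs1, the trimeric thrombospondin known to activate latent TGF-beta, was highest on the plate and lowest on GelMA-PSS. Its counts were 149776, 82077 and 96710 on TCP, GelMA and GelMA-PSS, at levels of 1230 CPM, 903 CPM and 534 CPM. The level was 1.36-fold lower on GelMA than on TCP, a ratio of 0.734 (0.728 to 0.741). It was 1.69-fold lower on GelMA-PSS than on GelMA, a ratio of 0.591 (0.586 to 0.597), and 2.30-fold lower on GelMA-PSS than on TCP, a ratio of 0.434 (0.431 to 0.438). By level, Thbs1 stood 70th among all genes on TCP, 108th on GelMA and 289th on GelMA-PSS. For GelMA-PSS against TCP only 1.56% of all genes tested had a lower ratio. The gene lies at chr2:118111876-118127133 on the plus strand, with a transcript of 5848 bases.

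Thbs2, which is also a trimer, stood the other way. It had levels of 60.9 CPM on TCP, 104 CPM on GelMA and 100.5 CPM on GelMA-PSS. Both hydrogels were above the plate, by 1.71-fold (1.66 to 1.76) and 1.65-fold (1.61 to 1.70), and differed from each other by 0.965-fold (0.941 to 0.989). The log2 ratio of GelMA against TCP was 0.76, above that of 98.4% of all genes and short of 2-fold. The gene spans chr17:14665500-14694235 on the minus strand, and its transcript of 5895 bases is nearly as long as that of Thbs1.

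The pentameric thrombospondins were low. Thbs3 had 7.63 CPM on TCP, 10.2 CPM on GelMA and 9.01 CPM on GelMA-PSS, with log2 ratios of 0.37 for GelMA against TCP, -0.16 for GelMA-PSS against GelMA and 0.21 for GelMA-PSS against TCP. Its 11658 bases at chr3:89215180-89226837 lie wholly within Mtx1 on the other strand, and whether the counting used strand is not stated, so its counts are uncertain. Other annotated genes also overlap Tnc (67162 bases, other strand), Thbs1 (597 bases, other strand) and Spp1 (1252 bases, same strand). None of them is among the symbols counted, and their part in the counts was not tested. Thbs4, a thrombospondin of tendon and muscle matrix, had 4 counts on TCP, 0 on GelMA and 11 on GelMA-PSS. With the limit of 3 counts put in place of the 0 on GelMA, GelMA-PSS stood 1.84-fold higher. The counting interval of 11 against 0 counts began at 1.26-fold and had no upper end. Against TCP the fold was 1.85 (0.548 to 7.96), an interval that spans both directions. Thbs4 lies at chr13:92751590-92794818 on the minus strand and was not among the genes tested.

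The CCN genes differed from each other in pattern. Nov, whose product CCN3 binds integrins and Notch, had levels of 21.0 CPM on TCP, 13.3 CPM on GelMA and 26.1 CPM on GelMA-PSS. GelMA was the lowest of the 3, 1.58-fold below TCP, a ratio of 0.634 (0.592 to 0.680), and GelMA-PSS was 1.96-fold (1.84 to 2.09) above GelMA, a log2 ratio of 0.92 with 97.4% of all genes below it. GelMA-PSS was 1.24-fold (1.18 to 1.30) above TCP. Wisp1, first described as a target of Wnt signalling, had 76.9 CPM on TCP, 84.2 CPM on GelMA and 54.1 CPM on GelMA-PSS. GelMA-PSS was the lowest of the 3, 1.56-fold below GelMA, a ratio of 0.643 (0.624 to 0.662), and 1.42-fold below TCP, a ratio of 0.704 (0.684 to 0.724). Nov lies at chr15:54745702-54754039 and Wisp1 at chr15:66891320-66923201, both on the plus strand.

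Because the libraries differ in how ratios follow transcript length, ratios between genes within a library were also taken, 2 of them between genes of nearly equal length. The pairs were chosen after the values were seen. Thbs1 and Thbs2 differ by little in length (5848 and 5895 bases), and per base Thbs1 had 20.4 times the counts of Thbs2 on TCP (19.9 to 20.8), 8.74 times on GelMA (8.56 to 8.93) and 5.35 times on GelMA-PSS (5.27 to 5.44). The ratio was thus 2.33-fold lower on GelMA than on TCP, and 3.80-fold lower on GelMA-PSS than on TCP. Of the thrombospondin counts per base, Thbs1 made up 94.3%, 88.1% and 82.1% on TCP, GelMA and GelMA-PSS, and Thbs2 made up 4.63%, 10.1% and 15.3%. Postn and Thbs3, of 3189 and 3190 bases, gave 2.60 (2.41 to 2.81) on TCP, 2.11 (1.95 to 2.28) on GelMA and 4.39 (4.16 to 4.64) on GelMA-PSS. The ratio on GelMA-PSS stood above the other 2, with the reserve on the counts of Thbs3 given above. Spp1 per base was 2.01, 4.51 and 3.89 times Sparc on TCP, GelMA and GelMA-PSS, and Tnc was 0.0784, 0.221 and 0.374 times Thbs1. Wisp1, with a transcript of 5097 bases, stood at 1.46, 0.935 and 0.623 times Thbs2 on TCP, GelMA and GelMA-PSS. These last 3 pairs differ more in length, and their ratios were not corrected for it beyond the division by length.

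**Figure D3:**
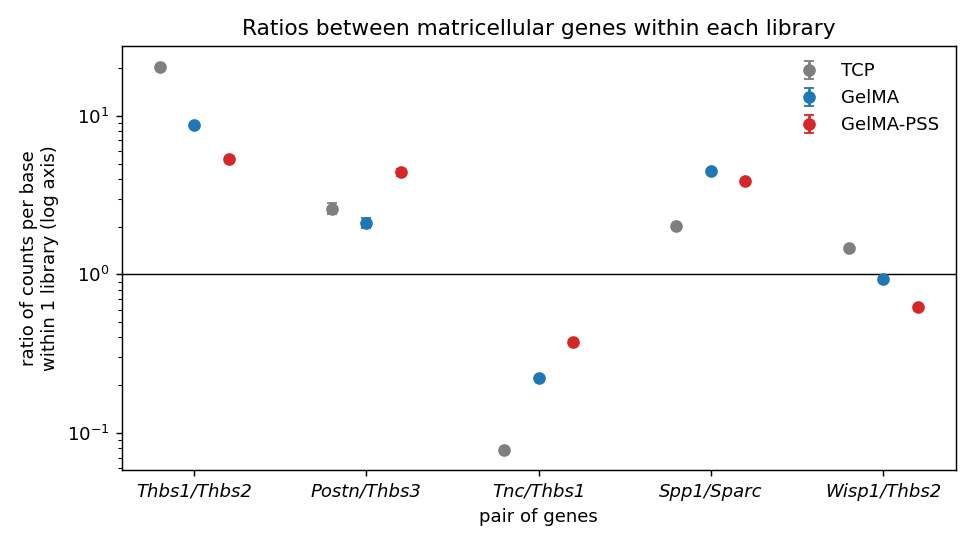
Ratio of counts per base (vertical log axis) of 5 pairs of matricellular genes within each library, with exact binomial intervals at 95% as bars, mostly hidden by the points. The line marks equal counts per base. Thbs1 over Thbs2 descends from 20.4 on TCP to 5.35 on GelMA-PSS, and Tnc over Thbs1 ascends from 0.0784 to 0.374.

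Ratios of GelMA-PSS followed transcript length across all genes. Spearman's rho between the log2 ratio and transcript length, across 13060 genes, which are not independent replicates and share the same libraries, was -0.66 for GelMA-PSS against GelMA, -0.51 for GelMA-PSS against TCP and 0.20 for GelMA against TCP. With smooth fits on length and GC content subtracted, the ratio of Tnc for GelMA-PSS against GelMA went from 0.00 to 0.56 in log2, while that of Spp1 went from 0.19 to -0.27. Thbs2 went from -0.05 to 0.31 in the same comparison. Thbs1 remained below 0 but nearer to it, at -0.39 in place of -0.76, and Wisp1 stood at -0.40 in place of -0.63. Postn and Nov, which are of middle length, kept corrected log2 ratios of 0.76 and 0.78. For GelMA-PSS against TCP, the corrected ratio was 1.46 for Tnc, 0.99 for Thbs2, 0.91 for Spp1 and -0.92 for Thbs1. For GelMA against TCP it was 1.16 for Spp1 and 0.92 for Tnc. The part of transcript length in these differences cannot be told apart from that of the substrate with 1 library each.

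**Figure D4:**
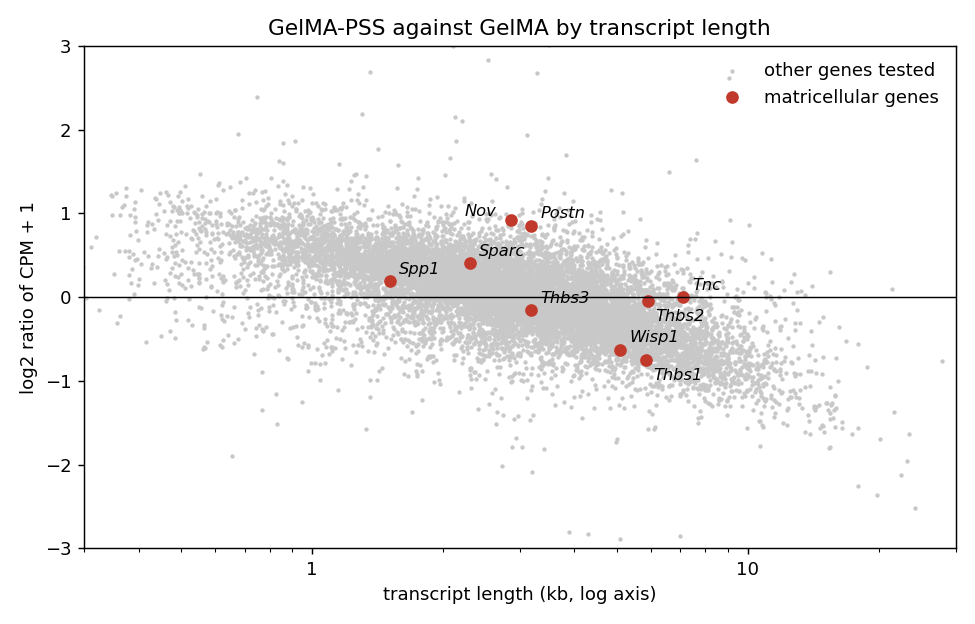
Log2 ratio of CPM + 1 of GelMA-PSS against GelMA (vertical axis) by transcript length in kb (log axis) for genes tested (grey) and the 9 expressed matricellular genes (red). Of 13060 genes with a length, 123 lie outside the axes and are not drawn. The grey cloud descends with length, Tnc, the longest of the 9, lies at 0.00 above most genes of its length, and Spp1, the shortest, at 0.19 below most of its own.

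Genes around the matricellular proteins were followed in lists. Of 22 related matricellular genes 12 were tested, and 0 were past 2-fold for GelMA against TCP or GelMA-PSS against GelMA. For GelMA-PSS against TCP, 1 of the 12 was higher, where 3.72% of all genes were. This was Fstl1, a secreted glycoprotein of the SPARC family, with 253 CPM on TCP, 406 CPM on GelMA and 547 CPM on GelMA-PSS and a log2 ratio of 1.11 (1.17 corrected). The medians of the 12 were 0.01, -0.00 and -0.10 in log2 for GelMA against TCP, GelMA-PSS against GelMA and GelMA-PSS against TCP.

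Of 20 receptor genes 19 were tested, with medians of 0.17, -0.11 and -0.13 in the same order, and 0 were past 2-fold for GelMA against TCP. Lrp1, an endocytic receptor that clears thrombospondins, had levels of 1273 CPM on TCP, 1818 CPM on GelMA and 626 CPM on GelMA-PSS. It was the 1 receptor gene lower past 2-fold for GelMA-PSS against GelMA, where 2.33% of all genes were, with a log2 ratio of -1.54, and -0.30 when corrected for length and GC content. For GelMA-PSS against TCP 3 of the 19 receptor genes were lower past 2-fold, where 3.13% of all genes were. Cd36, a thrombospondin receptor, had 53.9 CPM, 27.6 CPM and 20.7 CPM on TCP, GelMA and GelMA-PSS and a log2 ratio of -1.34 (-1.45 corrected). Lrp1 had a ratio of -1.02 (-0.13 corrected), and Itga9, a subunit of an integrin that binds osteopontin and tenascin C, had -1.05 (-0.66 corrected) at levels of at most 1.44 CPM. The lower level of Cd36 thus held with the correction, while that of Lrp1 fell short of 2-fold. Itga9 reached a CPM of 1 on TCP alone, with 1.44, 0.572 and 0.177 CPM on TCP, GelMA and GelMA-PSS. Its place among the 3 thus rests on the library where it was highest. The 1 added to CPM understates its difference, so the corrected -0.66 does not show a difference under 2-fold.

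All 16 genes of TGF-beta signalling were tested. For GelMA-PSS against GelMA 16 of 16 had a log2 ratio below 0, where 46.9% of all genes did, with a median of -0.53, and after the correction 13 of 16 were below 0, where 50.0% of all genes were, with a median of -0.32. For GelMA-PSS against TCP 15 of 16 were below 0, where 47.2% of all genes were, with a median of -0.44, and 12 of 16 after the correction, where 49.8% of all genes were, with a median of -0.37. For GelMA against TCP 10 of 16 were below 0, where 51.7% of all genes were, with a median of -0.08. Those past 2-fold were Ltbp2, a latent TGF-beta binding protein, for GelMA-PSS against GelMA, at 152 CPM, 246 CPM and 117 CPM on TCP, GelMA and GelMA-PSS (log2 ratio -1.06, corrected -0.48), and Ltbp1, which holds latent TGF-beta in the matrix, for GelMA-PSS against TCP, at 157 CPM, 116 CPM and 75.8 CPM (-1.04, corrected -0.85). Neither was past 2-fold once corrected. Skil was short of 2-fold as measured for GelMA-PSS against GelMA (-0.92) and past it once corrected (-1.07).

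**Figure D5:**
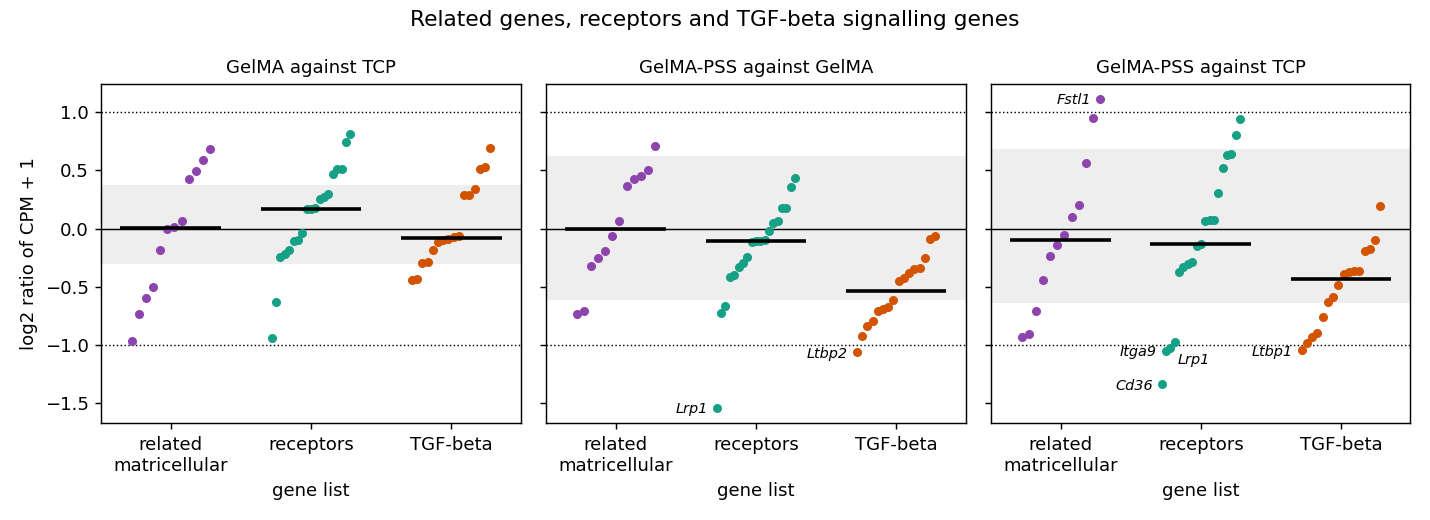
Log2 ratio of CPM + 1 (vertical axis) of each gene tested in 3 lists, related matricellular genes (12), receptors (19) and TGF-beta signalling genes (16), in the 3 comparisons, sorted within each list. Black bars are medians, the grey band holds the 10th to 90th percentile of all genes tested, dotted lines mark 2-fold and genes past it are named. In the middle panel all 16 TGF-beta signalling genes lie below 0.

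Genes most like the 2 members of widest range were sought among 9265 genes with a mean of at least 10 CPM, by Euclidean distance over the log2 ratios of GelMA and GelMA-PSS against TCP, and so over 3 libraries. Nearest to Spp1 stood Clmp (distance 0.082), Akap12 (0.097) and Ccnd1 (0.11). The ratios were as measured, and likeness after the length and GC correction was not tested. The transcript of Akap12 has 6195 bases and that of Spp1 has 1507 bases. Ccnd1, which encodes cyclin D1, had 28.6 CPM on TCP, 58.1 CPM on GelMA and 74.4 CPM on GelMA-PSS. Within a distance of 0.25 lay 9 genes for Spp1 and 103 for Thbs1. Nearest to Thbs1 stood Myom1 (distance 0.012), Cpeb2 (0.017) and Tbc1d8 (0.033). Myom1, which encodes the M-band protein myomesin, had 236 CPM, 174 CPM and 102 CPM on the same substrates. At this distance, more genes lay near Thbs1 than near Spp1. For GelMA against TCP the ratio of Spp1 was above that of 99.5% of genes, and that of Thbs1 above 4.54%. A fixed distance takes in fewer genes at a more extreme ratio, so the 2 numbers do not compare how particular the patterns are.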

How the data were processed

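For each of the 3 libraries the authors deposited a table of raw counts by gene symbol, from strand-specific paired-end reads of 101 bp. The submitters' processing notes name TopHat, edgeR and the builds mm10 and hg19, without their roles, and the counting tool and annotation are not given in the sources used here. The labels and the study's methods name different library kits. Substrates were taken from the sample labels. Lines with the same symbol were summed. In each library more genes had 2 counts than 1 (543 against 426 on TCP, 866 against 651 on GelMA, 480 against 441 on GelMA-PSS).

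Counts were scaled to CPM with TMM factors of 1.02, 1.04 and 0.943 for TCP, GelMA and GelMA-PSS (edgeR 4.0.16, R 4.3.3), and genes reaching a CPM of 1 in any library were kept. Ratios were taken on log2(CPM + 1), which understates differences of low genes. Intervals at 95% are exact Poisson for levels, exact binomial (Clopper-Pearson) for folds and Wilson for shares (scipy 1.17.1). To correct for length and GC content, 2 loess fits (statsmodels 0.14.6, span 0.3), on length and then on GC, were subtracted from each log2 ratio, with 1 transcript per gene from GENCODE vM21 (GRCm38). Of the symbols, 22197 matched this annotation as written, 669 by an older name and 372 not at all. Promoter windows came from RefSeq. The scripts were tested on simulated data.

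The members and lists were chosen with earlier results of these data known. The text names all 10 members, each gene of the related matricellular, receptor and TGF-beta lists past 2-fold (at most 5 per list and comparison), and the 3 nearest genes to each of the 2 members of widest range. Alternatives were a 1.5-fold threshold, a pseudocount of 0.1, no filter, DESeq2 1.42.0 size factors, total counts alone, and the correction.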

Additional observations from a re-analysis of the deposited data

How the results depend on the processing

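With a 1.5-fold threshold in place of 2-fold, 3 members were higher for GelMA against TCP (Tnc, Spp1, Thbs2), where 3.50% of all genes were. In the same comparison 1 was lower (Nov), where 2.12% were. For GelMA-PSS against GelMA 2 were higher (Postn, Nov), where 10.996% of all genes were, and 2 lower (Thbs1, Wisp1), where 10.806% were. For GelMA-PSS against TCP 4 were higher (Postn, Tnc, Spp1, Thbs2), where 13.2% of all genes were, and 1 lower (Thbs1), where 11.5% were. With total counts alone, 1 member was higher (Spp1) for GelMA-PSS against TCP, where 2.57% of all genes were, and 1 lower (Thbs1), where 4.38% were. The median log2 ratio of all genes then shifted by -0.13 for GelMA-PSS against GelMA. With the length and GC correction, 1 member was higher for GelMA against TCP (Spp1), where 0.658% of all genes were. For GelMA-PSS against TCP 1 was higher with it (Tnc), where 2.04% were, and 0 were lower, where 2.37% were. A pseudocount of 0.1, no filter on low CPM and DESeq2 size factors left the numbers of members past 2-fold as they were. Of 135 recomputed log2 ratios of members, 3 changed sign, all for GelMA-PSS against GelMA: Tnc to -0.14 with total counts, and Spp1 to -0.27 and Thbs2 to 0.31 with the correction. Over all genes, GelMA-PSS against GelMA had 233 genes higher and 307 lower past 2-fold, 120 and 506 with total counts, 88 and 159 with the correction, 356 and 525 with a pseudocount of 0.1 and 1448 and 1423 at 1.5-fold. GelMA-PSS against TCP had 490 and 412, 338 and 576 with total counts, 266 and 309 with the correction, 698 and 630 with the pseudocount and 1738 and 1509 at 1.5-fold. GelMA against TCP had 93 and 39, 104 and 35 with total counts, 86 and 34 with the correction, 213 and 106 with the pseudocount and 461 and 279 at 1.5-fold. No paired analysis was possible because each substrate has 1 library. For the same reason no library could be left out. Of the members, depth limits Thbs4, with 0 to 11 counts per library.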

Other observations

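The genes given here were short of 2-fold as measured, or are muscle markers, and were chosen after their values were seen. Ctgf, a CCN family gene and a known target of TGF-beta, had 172 CPM on TCP, 87.3 CPM on GelMA and 91.1 CPM on GelMA-PSS, with log2 ratios of -0.97 and -0.91 against TCP, which were -0.94 and -1.01 when corrected for length and GC content, the latter past 2-fold. Cyr61, of the same family, had 311 CPM, 205 CPM and 264 CPM on the same substrates. Both were thus highest on the plate, unlike Wisp1. Fbln5, an elastin-binding matrix protein, had 32.9 CPM, 19.4 CPM and 16.9 CPM on the same substrates. Its log2 ratio of GelMA-PSS against GelMA was -0.19 as measured and 0.14 when corrected, so that its direction between the hydrogels turned. Among the receptors, Cd44, to which osteopontin binds, had 377 CPM, 538 CPM and 726 CPM on TCP, GelMA and GelMA-PSS, with a log2 ratio of 0.94 for GelMA-PSS against TCP and 1.14 when corrected. Itga4, an integrin subunit, had 14.7 CPM, 25.3 CPM and 26.4 CPM on the same substrates. Its log2 ratio of GelMA-PSS against TCP was 0.80 as measured and 1.27 when corrected.

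Among the muscle markers, Myh3, the embryonic myosin heavy chain, had 10182 CPM on TCP, 6355 CPM on GelMA and 3037 CPM on GelMA-PSS, and Myf5, a myogenic regulator of myoblasts, had 13.9 CPM, 19.5 CPM and 36.5 CPM. Myod1 had 94.3 CPM, 105 CPM and 119 CPM, and Myog, which acts later in differentiation, had 1099.9 CPM, 895 CPM and 1037 CPM. Des had 3299 CPM, 2863 CPM and 3154 CPM, and Acta1 had 6192 CPM, 5379 CPM and 5059.6 CPM. Ckm had 542 CPM, 430 CPM and 379.7 CPM, and Tmem8c had 1029.8 CPM, 773 CPM and 669.8 CPM. The 8 markers thus did not share 1 order over the substrates as measured. Myod1 and Myf5 were highest on GelMA-PSS, Myog and Des were lowest on GelMA, and the other 4 were lowest on GelMA-PSS. With the length and GC correction, the log2 ratio of Myog for GelMA-PSS against GelMA went from 0.21 to -0.09, so that its direction turned. That of Des stayed above 0, at 0.14 as measured and 0.19 corrected. The ratio of Myh3 went from -1.07 to -0.61.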
